A study of Mus musculus with 60 samples.

Results

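Stbd1 and 7 further genes of glycogen metabolism (Gys1, Gbe1, Pygb, Pygm, Gaa, Epm2a and Ppp1r3c) were followed by their symbols in an RNA sequencing count table of mouse brain, where they make up 8 of 21950 genes. Stbd1 was chosen by its KO minus WT difference in these same libraries, so those values are given as a description with no test, and the other 7 were chosen as its partners in the pathway. The 60 libraries came from striatum, hippocampus and prefrontal cortex of Adgrl3 -/- mice (KO) and Adgrl3 +/+ mice (WT), with 10 libraries per genotype and region. Adgrl3, also called Lphn3, encodes the adhesion receptor latrophilin-3. The mice were 65 to 76 days old, 12 of each genotype were killed per the labels' protocols, and frozen brains were dissected by region. The labels read here state neither sex, litter and strain background nor the form of the Adgrl3 mutation. The tissue is whole and holds all cell types of a region, so fewer cells of a type and less RNA per cell cannot be told apart.

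Glycogen is the stored form of glucose, and in the brain it is held mainly by astrocytes. Glycogen synthase, encoded by Gys1, lengthens its glucose chains, and the branching enzyme encoded by Gbe1 adds branch points. Glycogen phosphorylase, of which Pygb encodes the brain form and Pygm the muscle form, releases glucose units in phosphorylated form in the cytosol. A second route runs through the lysosome: the protein encoded by Stbd1 binds glycogen through a starch-binding domain and tethers it to membranes, and it interacts with the autophagy protein GABARAPL1. The acid alpha-glucosidase encoded by Gaa then degrades glycogen inside the lysosome. Ppp1r3c (also called PTG) directs protein phosphatase 1 to glycogen and promotes its synthesis. Epm2a encodes laforin, a phosphatase that acts on glycogen and whose loss in humans causes Lafora disease.

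Library totals ran from 38985577 to 51387833 counts, with a median of 45056859. In KO libraries Adgrl3 stood at 25.6% of its WT mean in striatum, 27.9% in hippocampus and 23.7% in prefrontal cortex, and the ranges of the genotypes did not overlap in any region. The summed marker genes of each region were highest in that region, and the 10 astrocyte markers were all detected. Their summed level had a median of 4085 CPM (read counts relative to library size, after scaling of the 60 libraries to each other) in KO and 4050 CPM in WT striatum, 4491 and 4228 CPM in hippocampus, and 4339 and 4048 CPM in prefrontal cortex. One WT animal, replicate 5, stood apart from the other 9 for Stbd1 and for genes near it in all 3 regions. Its Adgrl3 level lay in the WT range (154 CPM in striatum, 117 CPM in hippocampus and 163 CPM in prefrontal cortex). Stbd1 levels and KO minus WT differences are therefore given with and without replicate 5, save the levels per kb of exon, which include it. Calls of other genes, those near Stbd1 among them, come from fits that include it unless stated.

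Stbd1 (ENSMUSG00000047963.7) lies on chromosome 5 of GRCm38 from 92603041 to 92606579 on the plus strand. In the GENCODE M21 annotation it has 3 transcripts and 3 blocks of exon over a span of 3.54 kb, and no other gene overlaps it. It starts 10.78 Mb beyond the end of Adgrl3, which lies on the same chromosome. The 240 bases just before its start are shown because Stbd1 is the member whose level differed between the genotypes. They are the reference sequence from RefSeq (GRCm38.p6, chr5:92602801-92603040, plus strand), and the sequence carried by the sampled mice was not analysed here. Capitals mark the GC-box letters GGGCGG.
Stbd1 upstream: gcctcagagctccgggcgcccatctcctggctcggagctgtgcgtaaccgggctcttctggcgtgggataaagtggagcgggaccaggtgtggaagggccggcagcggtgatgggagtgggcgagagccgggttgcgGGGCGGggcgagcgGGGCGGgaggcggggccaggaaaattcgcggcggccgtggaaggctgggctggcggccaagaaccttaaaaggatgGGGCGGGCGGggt

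This window holds 4 matches of GGGCGG, with their first bases at -103, -89, -13 and -9 (the base just before the gene start is -1), of which the last and the one before it overlap. GGGCGG or its reverse complement occurs in 31.3% of 32851 RefSeq promoter windows of 240 bases. On both strands, the letters CACGTG (5.69% of windows), TATAAA (12.1%), CCAAT (33.0%) and TGACGT (6.09%) were not found in the Stbd1 window. It is 70.8% G and C, against a median of 52.1% over all windows. The 8 genes each matched an entry of the promoter table. GGGCGG was also found in the windows of Gys1 (2 matches) and Epm2a (1 match), so it is shared by 3 of the 8.

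Stbd1 was the single member whose KO libraries lay above the WT libraries, save 1 WT animal. In striatum its level ran from 2.08 to 4.03 CPM in KO libraries (median 3.03), against 0.554 to 2.31 CPM in WT libraries (median 0.685). In hippocampus it ran from 5.66 to 9.17 CPM in KO (median 6.53), against 0.775 to 7.63 CPM in WT (median 1.41). In prefrontal cortex it ran from 6.94 to 12.8 CPM in KO (median 9.89), against 0.959 to 10.9 CPM in WT (median 1.72). The highest WT value of each region belonged to replicate 5, and the other 9 WT libraries all lay below the lowest KO library, with highest values of 0.908 CPM in striatum, 1.72 CPM in hippocampus and 2.44 CPM in prefrontal cortex. Over all libraries the ranges thus overlapped through 1 WT animal.

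**Figure D1:**
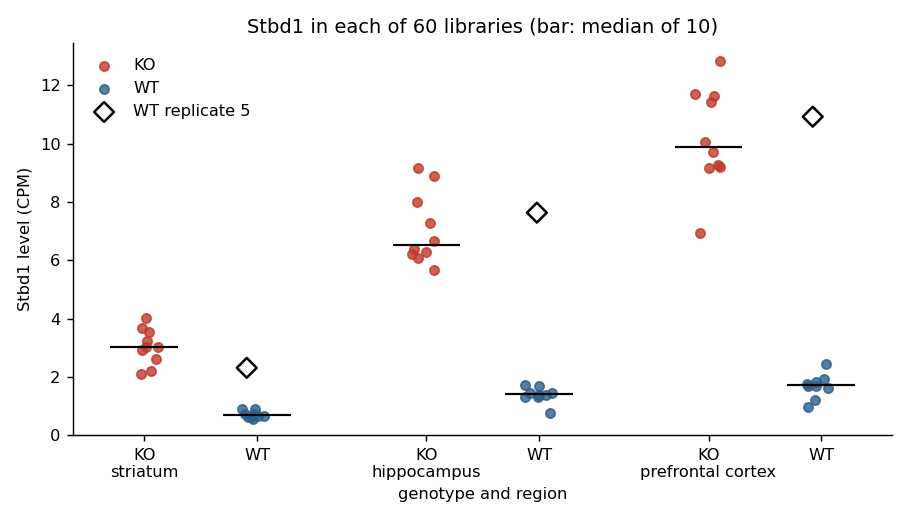
Stbd1 level in CPM in each library of striatum, hippocampus and prefrontal cortex, KO (red) beside WT (blue), with a bar at the median of 10 libraries. The open diamond is WT replicate 5, which lies among the KO libraries at 2.31, 7.63 and 10.9 CPM, while the other 9 WT libraries lie below every KO library of their region.

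Stbd1 averaged 3.03 ± 0.62 CPM in KO and 0.870 ± 0.519 CPM in WT striatum, 7.06 ± 1.23 CPM in KO and 2.01 ± 1.99 CPM in WT hippocampus, and 10.2 ± 1.72 CPM in KO and 2.60 ± 2.95 CPM in WT prefrontal cortex (SD, n = 10 each). Without replicate 5 the WT means were 0.710 ± 0.122, 1.38 ± 0.270 and 1.68 ± 0.421 CPM (SD, n = 9) in the same order of regions. The ratio of KO to WT means was 3.49 in striatum, 3.52 in hippocampus and 3.92 in prefrontal cortex with all libraries. It was 4.27, 5.11 and 6.08 without replicate 5. On the log2 scale KO exceeded WT by 1.80 ± 0.21 in striatum, 1.81 ± 0.31 in hippocampus, 1.97 ± 0.35 in prefrontal cortex and 1.88 ± 0.31 with the regions of an animal summed (edgeR estimate and SE). Without replicate 5 the differences were larger and their SE smaller: 2.09 ± 0.13, 2.35 ± 0.12, 2.59 ± 0.14 and 2.41 ± 0.09. Genes whose KO and WT ranges did not overlap made up 0.0193% of 15553 tested genes in striatum, 0.0321% of 15581 in hippocampus and 0.026% of 15376 in prefrontal cortex. Without replicate 5 these shares were 0.0643%, 0.0899% and 0.0911%. Stbd1 was chosen by this difference, so nothing is read from these shares about it.

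WT replicate 5 held 100 Stbd1 counts in striatum (exact Poisson 95% interval 81.4 to 122, which covers counting error only), 350 in hippocampus (314 to 389) and 461 in prefrontal cortex (420 to 505). No other WT library held more than 42, 75 and 104 counts in these regions. Relative to the KO mean, its level was 76.2% in striatum, 108% in hippocampus and 107% in prefrontal cortex. It exceeded the mean of the other 9 WT libraries 3.25-fold in striatum, 5.53-fold in hippocampus and 6.51-fold in prefrontal cortex. For the remaining glycogen genes the same animal lay closer to the others: its level was between 0.924 and 1.25 times the mean of the other WT libraries for each of the 7 genes in each region. The highest of these ratios were those of Pygm, at 1.25 in striatum, 1.13 in hippocampus and 1.24 in prefrontal cortex, and replicate 5 was the highest WT library for Pygm in the last of these and in hippocampus.

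The genes that lie close to Stbd1 were examined next, since the gene sits on the chromosome of the targeted locus. Of 24 genes within 1 Mb of its ends, 18 were tested in striatum, 18 in hippocampus and 16 in prefrontal cortex. In striatum 0 were higher and 3 lower in KO (Naaa, Sdad1 and Shroom3), beside 0.0514% of all tested genes called in either direction by edgeR's quasi-likelihood test at a Benjamini-Hochberg adjusted p of 0.05. In hippocampus 1 was higher (Cdkl2) and 2 were lower (Naaa and Sdad1), beside 0.128% of all genes. In prefrontal cortex 2 were higher (Cdkl2 and Scarb2) and 2 lower (Naaa and Sdad1), beside 0.117% of all genes. Direction therefore differed among these neighbours. Fam47e, which ends 11.8 kb before Stbd1 on the same strand, and Ccdc158, whose nearer end lies 1.38 kb beyond it on the other strand, did not pass in any region in which they were tested. Their KO means were low, at most 1.01 CPM for Fam47e and 1.28 CPM for Ccdc158. Fam47e differed by 0.71 ± 0.36 in striatum and 0.23 ± 0.36 in hippocampus (log2, edgeR estimate and SE). Ccdc158 differed by 0.26 ± 0.19, 0.16 ± 0.10 and 0.23 ± 0.13 in striatum, hippocampus and prefrontal cortex. At such levels the lack of calls does not show that they were unchanged.

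Naaa, the gene of an N-acylethanolamine hydrolase 325 kb from Stbd1, moved opposite to it. Its KO libraries ran from 15.5 to 22.1 CPM in striatum, 17.2 to 22.0 CPM in hippocampus and 12.7 to 17.5 CPM in prefrontal cortex. The 9 WT libraries other than replicate 5 ran from 23.2 to 26.9, 26.1 to 31.0 and 18.3 to 23.5 CPM in these regions. Here too WT replicate 5 lay inside the KO range of each region, at 20.2, 20.6 and 15.2 CPM. For Scarb2, which encodes a lysosomal membrane protein, the prefrontal cortex level was 161 ± 11.9 CPM in KO (SD, n = 10) and 128 CPM on average in the 9 other WT libraries, and WT replicate 5 stood at 162 CPM. In striatum, where Scarb2 was not called, replicate 5 stood at 173 CPM, above the highest KO library (163 CPM). In hippocampus, where it was not called either, replicate 5 stood at 144.3 CPM. That lay inside the KO range (141.9 to 159.0 CPM) and that of the other WT libraries (127.8 to 144.4 CPM).

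Over the whole of chromosome 5, and with Stbd1 and Adgrl3 left out, 6 genes were called between KO and WT in striatum, 16 in hippocampus and 12 in prefrontal cortex. Over all chromosomes, with Stbd1 and Adgrl3 kept in, 8, 20 and 18 were called, or 0.0514%, 0.128% and 0.117% of tested genes. WT replicate 5 lay within the KO range for 4 of 6, 8 of 16 and 9 of 12 of the chromosome 5 genes. Each other WT library did so for at most 1 gene in striatum, 4 in hippocampus and 1 in prefrontal cortex. On the log2 scale its median position, counted from 0% at the mean of the other WT libraries to 100% at the KO mean, was 76.2% in striatum, 82.0% in hippocampus and 95.2% in prefrontal cortex. The position varied along the chromosome. At Adgrl3, which starts 11.6 Mb before Stbd1, it was 4.19%, 5.88% and -7.15% in striatum, hippocampus and prefrontal cortex. At Cox18, which starts 2.39 Mb before Stbd1 and encodes a factor that inserts a cytochrome oxidase subunit into the inner mitochondrial membrane, it was 48.4%, 71.0% and 30.8%. At Naaa it was 76.1%, 85.3% and 89.8%. At Hspb8, a small heat shock protein gene that starts 23.8 Mb beyond Stbd1 and was called in hippocampus, it was 71.8% there. At Brca2, which starts 57.9 Mb beyond Stbd1 and was called in striatum, it was -18.7% there. Genes nearer to Stbd1 had low positions too: Mthfd2l, which starts 1.67 Mb before it and was called in hippocampus, stood at 7.03% there, and Prdm8, which starts 5.56 Mb beyond it and was called in prefrontal cortex, stood at 18.6% there. Among the other genes called in hippocampus, Ociad1, Srd5a3 and Adamts3, which lie before Cox18, stood at -3.98%, 19.9% and 20.1% there. Cdkl2 and Sdad1 stood at 46.1% and 78.7%. Anxa3, Paqr3, Idua, Coro1c, Ssh1, Rplp0 and Gcn1l1, which lie beyond Stbd1, stood between 85.8% and 137%. The genotype of replicate 5 along the chromosome was not tested, and the animals' own sequence was not analysed here.

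**Figure D2:**
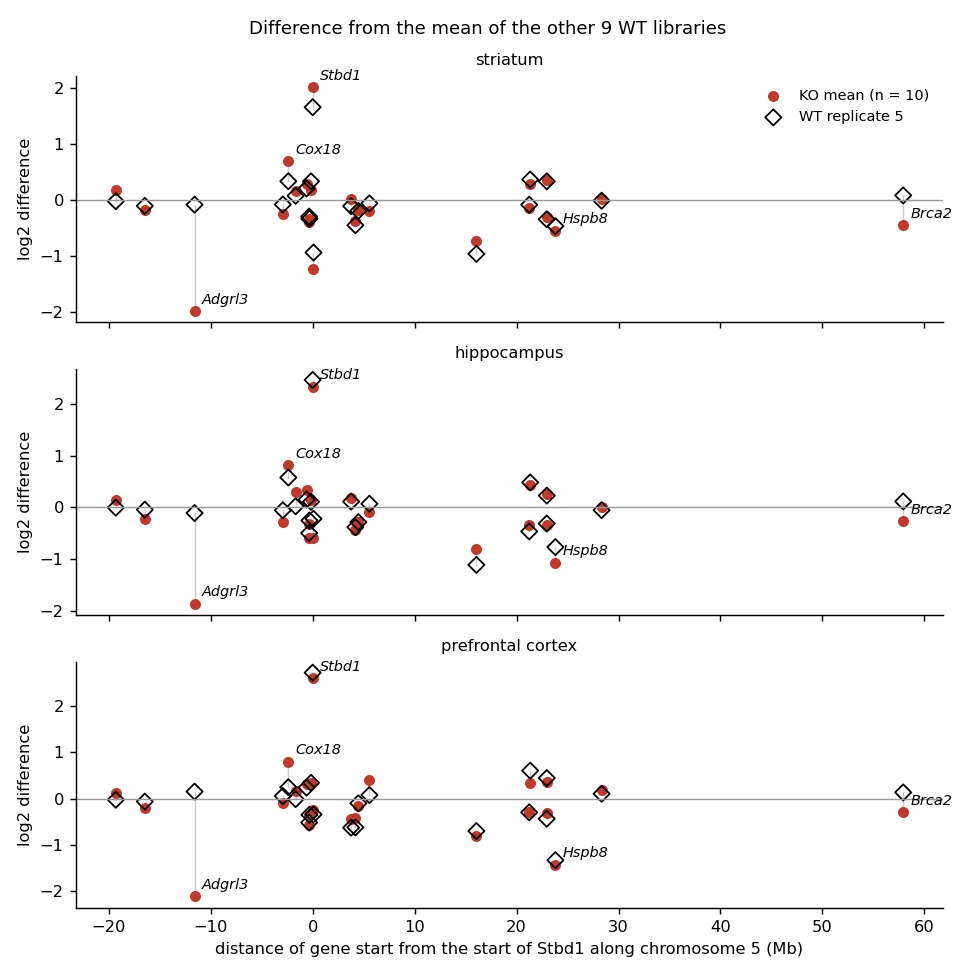
Log2 difference from the mean of the other 9 WT libraries for the KO mean (red) and for WT replicate 5 (open diamonds), over the chromosome 5 genes called in at least 1 region, against the distance of each gene start from that of Stbd1 in Mb; a panel per region. At Adgrl3 the diamond lies near 0 while the KO mean lies near -2, whereas at Stbd1 the diamond lies at 1.66, 2.46 and 2.71 beside KO means of 2.02, 2.33 and 2.59 in striatum, hippocampus and prefrontal cortex.

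The genes whose values over the 60 libraries were most like those of Stbd1 all came from chromosome 5. With the region means removed from log2 CPM, Pearson's r among 15087 genes was highest for Cox18 (0.93), Cdkl2 (0.87), Scarb2 (0.83), Gcn1l1 (0.83) and Ssh1 (0.79). It was lowest for Naaa (-0.90), Sdad1 (-0.86), Idua (-0.85), Coro1c (-0.85) and Adgrl3 (-0.84). The libraries fall into separate clusters for Stbd1, so these values mostly describe which libraries lie in which cluster. The remaining glycogen genes had r between -0.19 (Gaa) and 0.15 (Pygb) with Stbd1.

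The other 7 glycogen genes did not follow Stbd1. Of them 0 of 7 passed between KO and WT in striatum, hippocampus or prefrontal cortex, beside 0.0514%, 0.128% and 0.117% of all tested genes. With the regions summed 0 of 7 passed, beside 0.162% of 16676 tested genes. At shares this low, a count of 0 says little about the 7 genes. Their log2 differences lay between -0.08 and 0.09 in single regions, with medians of -0.02 in striatum, -0.03 in hippocampus and -0.02 in prefrontal cortex, beside medians over all tested genes of 0.0025, 0.0012 and -0.0037. The edgeR adjusted p of the 28 results lay between 0.64 and 0.98. The KO and WT ranges of each gene overlapped in each region. Intervals show how large a difference these data still allow: the widest of the 95% intervals on the log2 scale was that of Pygm in striatum, a fold of KO over WT from 0.918 to 1.18. The interval that reached highest was that of Ppp1r3c in prefrontal cortex, from 0.944 to 1.19. These intervals include WT replicate 5, and without it that of Pygm in striatum reached higher, from 0.944 to 1.21. Markers of other tissue varied between libraries: 4 olfactory bulb markers summed to 4.32 to 50.8 CPM in KO prefrontal cortex (median 6.92) and 5.45 to 98.3 CPM in WT prefrontal cortex (median 48.0). Erythrocyte markers, 5 in number, had medians of 412 CPM in KO and 676 CPM in WT prefrontal cortex, and 257 CPM in KO and 400.1 CPM in WT hippocampus. Choroid plexus markers, 4 in number, summed to 37.3 to 2975 CPM in KO hippocampus (median 409) and 51.5 to 2598 CPM in WT hippocampus (median 1455). Of the olfactory bulb, erythrocyte and choroid plexus markers tested, 0 passed between KO and WT in any region. Of the 6 oligodendrocyte markers 0 passed in any region, and their log2 differences of KO minus WT lay between 0.12 and 0.19 in striatum, between -0.18 and -0.09 in hippocampus and between 0.16 and 0.25 in prefrontal cortex. The part of these marker lists in the differences of the glycogen genes was not tested.

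**Figure D3:**
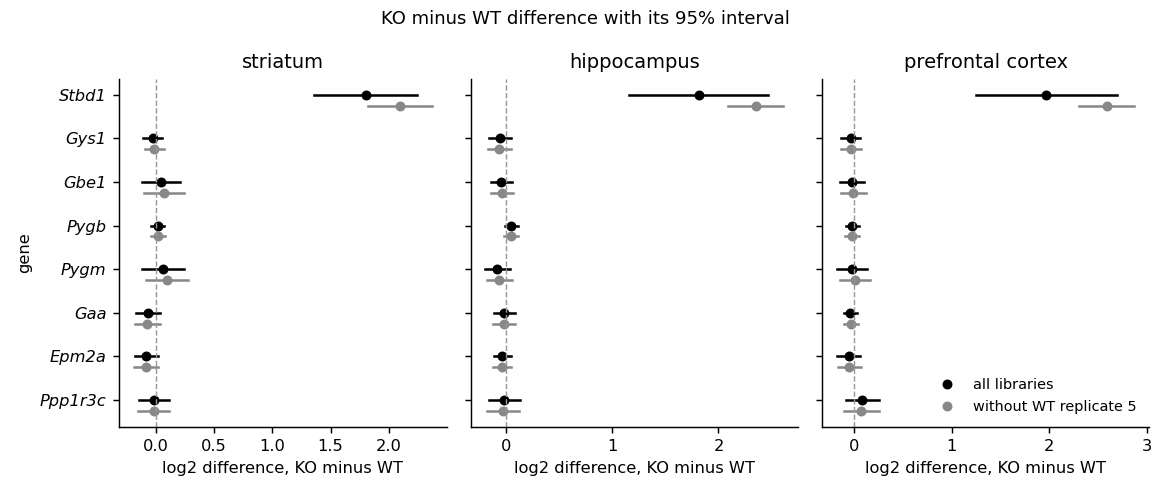
Log2 difference of KO minus WT with its 95% interval for the 8 genes in striatum, hippocampus and prefrontal cortex, with all libraries (black) and without WT replicate 5 (grey). Stbd1 lies near 2 in each region, and the intervals of the other 7 genes include 0.

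Of the synthesis genes, Gys1 (chromosome 7, 45434844 to 45456619) had 16.2 ± 0.750 CPM in KO and 16.5 ± 1.07 CPM in WT striatum, 17.3 ± 1.25 CPM in KO and 18.0 ± 1.55 CPM in WT hippocampus, and 16.9 ± 1.31 CPM in KO and 17.2 ± 0.994 CPM in WT prefrontal cortex (SD, n = 10 each). The first exons of Gys1 overlap Ruvbl2 on the other strand, and no label read here says how counting treated strand, so reads of Ruvbl2 could count for it. Its fold of KO over WT had 95% intervals of 0.928 to 1.04 in striatum, 0.895 to 1.04 in hippocampus and 0.913 to 1.04 in prefrontal cortex. Gbe1 (chromosome 16, 70313949 to 70569716) ran from 12.8 to 18.1 CPM in KO striatum (median 14.5) and from 12.4 to 17.3 CPM in WT striatum (median 14.7). In hippocampus it ran from 8.52 to 10.4 CPM in KO (median 9.72) and from 9.03 to 11.8 CPM in WT (median 9.88), and in prefrontal cortex from 8.72 to 12.4 CPM in KO (median 10.6) and from 9.26 to 11.9 CPM in WT (median 10.5). The genotypes overlapped over most of their range, and the edgeR adjusted p was 0.91, 0.858 and 0.933 in these regions.

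Of the cytosolic breakdown genes, Pygb (chromosome 2, 150786735 to 150831758) ran from 149 to 171 CPM in KO striatum (median 165) and from 152 to 173 CPM in WT striatum (median 164). In hippocampus it ran from 236 to 278 CPM in KO (median 261) and from 234 to 264 CPM in WT (median 251), and 4 KO libraries exceeded all WT libraries. In prefrontal cortex it ran from 145 to 175 CPM in KO (median 157) and from 147 to 163 CPM in WT (median 159.7). The hippocampal log2 difference of 0.05 ± 0.03 did not pass (edgeR adjusted p = 0.683). Pygm (chromosome 19, 6384399 to 6398459) was lower than Pygb throughout, at 23.2 ± 3.17 CPM in KO and 22.4 ± 3.52 CPM in WT striatum (SD, n = 10 each). It had 21.6 ± 1.61 and 22.8 ± 2.16 CPM in KO and WT hippocampus, and 22.4 ± 1.95 and 22.7 ± 3.54 CPM in KO and WT prefrontal cortex. Skeletal muscle markers, 5 in number, summed to at most 13.9 CPM in any KO library and 13.6 CPM in any WT library, and their part in the Pygm level was not tested.

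The lysosomal gene Gaa (chromosome 11, 119267887 to 119285454) was the most abundant member, at 403 ± 31.4 CPM in KO and 422 ± 33.8 CPM in WT striatum, 395 ± 18.5 CPM in KO and 398 ± 37.3 CPM in WT hippocampus, and 347 ± 17.6 CPM in KO and 354 ± 17.1 CPM in WT prefrontal cortex (SD, n = 10 each). Its 95% interval for the fold of KO over WT was 0.890 to 1.03 in striatum. Of the regulators, Epm2a (chromosome 10, 11343404 to 11459644) ran from 26.3 to 37.8 CPM in KO striatum (median 31.7) and from 31.8 to 36.0 CPM in WT striatum (median 33.6). Its log2 difference there, -0.08 ± 0.05, was the lowest among the 7 genes and did not pass (edgeR adjusted p = 0.72), and the interval ran from 0.881-fold to 1.01-fold. Ppp1r3c (chromosome 19, 36731737 to 36736653, minus strand) ran from 32.1 to 41.8 CPM in KO striatum (median 37.4) and from 32.4 to 46.2 CPM in WT striatum (median 36.8). In hippocampus it ran from 42.2 to 56.3 CPM in KO (median 43.9) and from 38.7 to 56.6 CPM in WT (median 45.6), and in prefrontal cortex from 29.2 to 46.1 CPM in KO (median 35.2) and from 23.9 to 39.0 CPM in WT (median 31.5). Its edgeR adjusted p was 0.952, 0.979 and 0.752.

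A further 26 genes of the pathway were set beside the 8. Of these, 24 had enough counts to be tested in each region and 0 of 24 passed between KO and WT in any region. The shares of all tested genes that passed were 0.0514% in striatum, 0.128% in hippocampus and 0.117% in prefrontal cortex. With the regions summed 26 were tested and 0 passed, beside 0.162% of all tested genes. At shares this low, a count of 0 says little about the pathway genes. The medians of their log2 differences were -0.01 in striatum, 0.02 in hippocampus and 0.0031 in prefrontal cortex. The smallest p belonged to Ugp2 in every comparison. Its enzyme makes UDP-glucose, the donor for glycogen synthesis. Ugp2 averaged 86.4 ± 4.18 CPM in KO and 80.2 ± 5.02 CPM in WT striatum, 83.9 ± 4.16 CPM in KO and 78.9 ± 3.24 CPM in WT hippocampus, and 78.6 ± 2.53 CPM in KO and 74.3 ± 3.66 CPM in WT prefrontal cortex (SD, n = 10 each). Its log2 difference was 0.11 ± 0.04 in striatum (edgeR adjusted p = 0.576), 0.09 ± 0.03 in hippocampus (0.425), 0.07 ± 0.03 in prefrontal cortex (0.361) and 0.09 ± 0.02 with the regions summed (0.052), which missed the threshold. Next came Gyg, the glycogenin gene, in striatum (0.08 ± 0.03, adjusted p = 0.576), the kinase gene Gsk3b in hippocampus (0.05 ± 0.02, adjusted p = 0.572), Ppp1r3b in prefrontal cortex (-0.33 ± 0.15, adjusted p = 0.402) and Pgm2 with the regions summed (-0.05 ± 0.02, adjusted p = 0.443). Gabarapl1, which encodes the autophagy partner of the Stbd1 protein, stood at 459 ± 14.9 CPM in KO and 461 ± 23.4 CPM in WT striatum, at 433 ± 15.0 and 431 ± 16.8 CPM in KO and WT hippocampus, and at 508 ± 24.0 and 507 ± 21.4 CPM in KO and WT prefrontal cortex.

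Whether the KO minus WT difference itself differed between regions was tested over all 60 libraries with the interaction terms, where 0.0248% of 16121 genes passed. None of the other 7 glycogen genes did (edgeR adjusted p = 1 for each). This fit took the regions of an animal as separate libraries. With each animal as a block, the adjusted p of these genes lay between 0.701 (Ppp1r3c) and 0.974 (Gys1) in edgeR. The differences of Stbd1 by region, given above with and without WT replicate 5, are a description with no test.

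Levels between genes were compared per kb of exon. In WT striatum, Gaa led with 88.3 ± 7.06 CPM per kb, followed by Pygb (33.8 ± 1.37), Ppp1r3c (13.8 ± 1.58), Epm2a (10.3 ± 0.422), Pygm (6.95 ± 1.09), Gys1 (3.44 ± 0.224), Gbe1 (2.75 ± 0.356) and Stbd1 (0.392 ± 0.234; SD, n = 10 each). Pygb and Ppp1r3c lie far apart in this order beyond their spread, as do Gaa and Pygb. The same order held for the means in WT hippocampus, where Stbd1 had 0.903 ± 0.898 CPM per kb. In WT prefrontal cortex Ppp1r3c (12.0 ± 1.65) and Epm2a (12.0 ± 0.845) did not differ beyond their spread. In KO prefrontal cortex Stbd1 reached 4.59 ± 0.773 CPM per kb, above the 3.52 ± 0.274 CPM per kb of Gys1 and the 1.95 ± 0.213 of Gbe1 in the same libraries. In the corresponding WT libraries it averaged 1.17 ± 1.33 CPM per kb, below Gys1 at 3.58 ± 0.208 and Gbe1 at 1.97 ± 0.160. The WT values of Stbd1 per kb include replicate 5, which raises both their mean and their SD. Features ran from gene start to gene end and took in intron reads, so the values per kb of exon are too high for genes of long introns such as Gbe1 (255.77 kb) and Epm2a (116.24 kb).

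**Figure D4:**
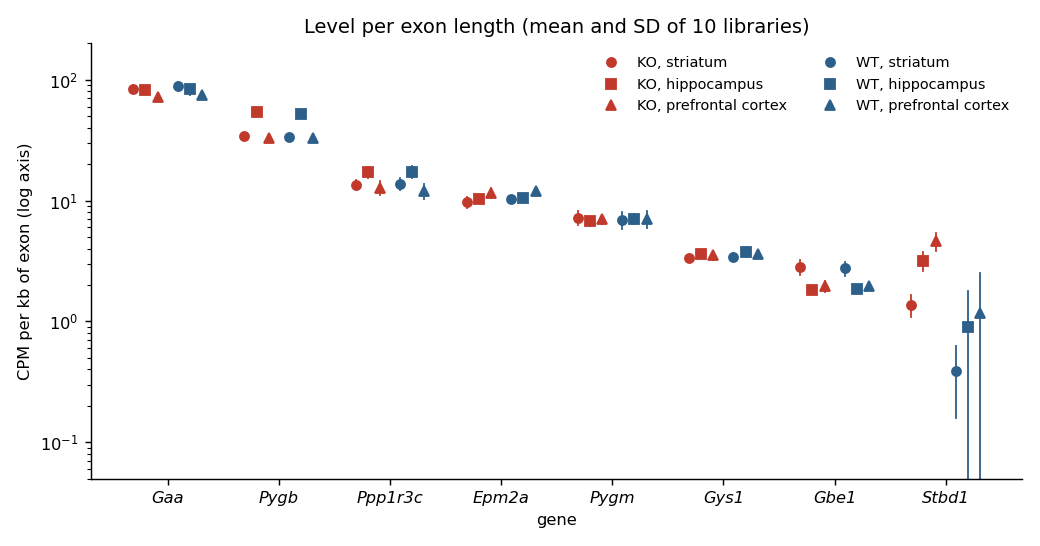
Mean level per kb of exon, on a log axis, with the SD over 10 libraries, for the 8 genes in KO (red) and WT (blue) striatum, hippocampus and prefrontal cortex. Gaa is highest at 72.5 to 88.3 CPM per kb and Stbd1 lowest in WT at 0.392 to 1.17; the SD bars of WT Stbd1 include replicate 5, and those that reach the lower edge of the axis are cut there.

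Among regions, the levels in WT libraries were compared by edgeR at an adjusted p of 0.05 and an absolute log2 difference of at least 1. These fits took the regions of an animal as separate libraries, so their SE and p ignore that animals are shared. With equal replicate numbers as a block instead, no call among the members changed. Stbd1 was lower in striatum than in hippocampus by this rule (log2 difference -1.20 ± 0.45, adjusted p = 0.0196), beside 10.2% of 15826 tested genes that passed. Without WT replicate 5 the difference was -0.96 ± 0.15 (adjusted p = 2.85e-06), which no longer reached the fold required. Against prefrontal cortex the striatal difference was -1.57 ± 0.44 (adjusted p = 0.00248, beside 11.6% of genes), and -1.23 ± 0.15 without replicate 5. With DESeq2 it was -0.93 (adjusted p = 0.00479), under the fold required. Hippocampus and prefrontal cortex differed by -0.37 ± 0.41 (adjusted p = 0.44, beside 10.1% of genes). In the KO libraries, among which none stood apart, the same contrasts gave -1.22 ± 0.12, -1.75 ± 0.12 and -0.53 ± 0.11, with edgeR adjusted p of 9.62e-11, 1.74e-14 and 1.08e-04. Striatum thus had the lowest Stbd1 level in both genotypes.

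None of the other 7 genes reached a log2 difference of 1 between regions. By adjusted p alone, which 66.6% of genes passed for striatum against hippocampus, 71.5% for striatum against prefrontal cortex and 68.5% for hippocampus against prefrontal cortex, 4 of 7 passed in the first contrast, 4 of 7 in the second and 4 of 7 in the third. For Pygb, striatum minus hippocampus was -0.62 ± 0.03 (edgeR adjusted p = 6.78e-20) and hippocampus minus prefrontal cortex was 0.65 ± 0.03 (adjusted p = 3.01e-20). No WT striatum library exceeded 173 CPM and no WT prefrontal cortex library 163 CPM, while the lowest WT hippocampus library had 234 CPM. Gbe1 had its highest level in striatum, 0.56 ± 0.06 above hippocampus and 0.48 ± 0.06 above prefrontal cortex (edgeR adjusted p = 2.02e-09 and 3.27e-08). For Ppp1r3c the log2 difference was -0.33 ± 0.08 for striatum against hippocampus (adjusted p = 3.01e-04), 0.20 ± 0.08 for striatum against prefrontal cortex (0.0212) and 0.53 ± 0.08 for hippocampus against prefrontal cortex (3.15e-07). With the replicate block its difference for striatum against prefrontal cortex was 0.20 ± 0.03 (edgeR adjusted p = 4.26e-06). Gaa and Epm2a differed by less than 0.3: Gaa stood 0.26 ± 0.05 above prefrontal cortex in striatum, and Epm2a stood at -0.22 ± 0.04 in the same contrast. For Pygm the 3 differences lay between -0.03 and 0.01, with adjusted p of 0.795 or more.

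Of the further 26 pathway genes, 24 were tested between regions. In the contrasts in the order above, 10.2%, 11.6% and 10.1% of all tested genes reached both thresholds, and 0 of the 24 did. The 2 of smallest p per contrast were Gsk3b (0.54 ± 0.04, adjusted p = 7.84e-14) and Gyg (-0.54 ± 0.04, 2.98e-13) for striatum against hippocampus. They were Pgm2l1 (-0.99 ± 0.07, 4.37e-14) and Pgm2 (0.36 ± 0.03, 3.34e-13) for striatum against prefrontal cortex. For hippocampus against prefrontal cortex they were Phka1, a regulatory subunit of phosphorylase kinase (0.77 ± 0.06, 2.96e-13), and Gsk3a (-0.32 ± 0.03, 1.27e-12).

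With the genotypes pooled, single animals differed from each other in a similar way across regions for both regulators. This was looked at after the values had been seen, for the 8 genes and 3 pairs of regions (24 relations), with the genotype means removed and p-values from 100000 permutations within genotype, adjusted over the 24. Equal replicate numbers of a genotype were taken as 1 animal. For Ppp1r3c over 20 animals, Pearson's r was 0.86 between hippocampus and striatum (Spearman's rho 0.91), 0.85 between hippocampus and prefrontal cortex (rho 0.79) and 0.79 between prefrontal cortex and striatum (rho 0.81). The adjusted permutation p was 1.2e-04, 1.2e-04 and 3.2e-04 for r, and 2.4e-04, 0.0012 and 6e-04 for rho. The unadjusted p of 1e-05 behind the first values is the smallest these permutations can give. Without the 2 animals farthest from the median of the first region named, r was 0.84, 0.79 and 0.77. At or above these r were 1.04%, 1.31% and 3.08% of 15088 genes, whose median r was 0.18, 0.22 and 0.30.

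KO replicate 8 had the highest Ppp1r3c level among the KO libraries of each region, with 41.8 CPM in striatum, 56.3 CPM in hippocampus and 46.1 CPM in prefrontal cortex. WT replicate 10 was lowest among WT libraries in hippocampus (38.7 CPM) and prefrontal cortex (23.9 CPM) and second lowest in striatum (32.5 CPM). Epm2a gave r of 0.81, 0.70 and 0.68 for the same pairs of regions (rho 0.71, 0.77 and 0.78), with adjusted permutation p of 7.8e-04, 0.00845 and 0.0127 for r and 0.00412, 0.0012 and 0.0012 for rho. Without the 2 farthest animals r was 0.60, 0.71 and 0.68. Of 15088 genes, 1.85%, 4.67% and 8.6% had an r at or above that of Epm2a in these pairs. KO replicate 1 held the highest Epm2a level among KO libraries in each region (37.8, 39.3 and 43.5 CPM in striatum, hippocampus and prefrontal cortex). Among WT libraries the Epm2a order was less alike between regions than among KO libraries. WT replicate 6 ranked 1 in hippocampus and 5 in striatum, and WT replicate 1 ranked 8 and 3, while WT replicate 4 ranked 10 and 9. The relation was not tested within a single genotype. The other 6 genes did not pass in any pair of regions. Gys1 between hippocampus and prefrontal cortex gave r of 0.53 (rho 0.53, adjusted permutation p = 0.0555 and 0.0588). Gbe1 between prefrontal cortex and striatum gave values of the opposite sign, with r of -0.48 and rho of -0.54 (adjusted permutation p = 0.122 and 0.0588), and 99.7% of genes had an r at or above it. For Stbd1, with WT replicate 5 left out, r lay between 0.10 and 0.25 over 19 animals, and the adjusted permutation p for r was 0.522 or more.

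**Figure D5:**
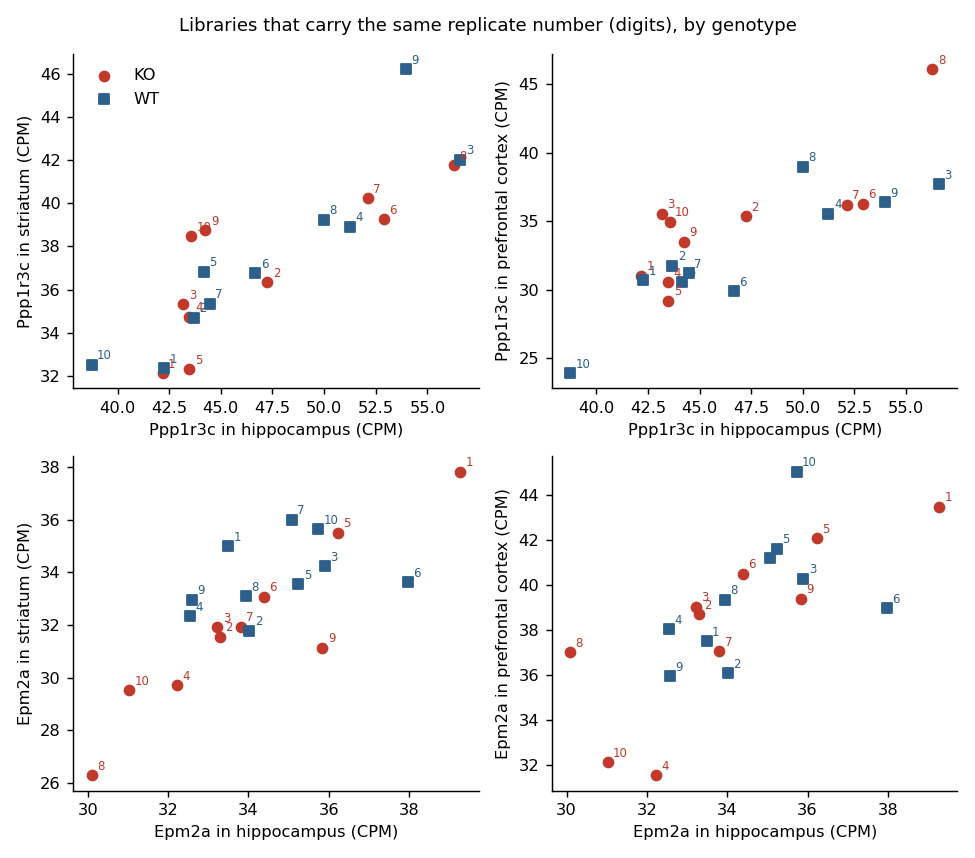
Level of Ppp1r3c (upper row) and Epm2a (lower row) in CPM, hippocampus on the horizontal axis against striatum (left) and prefrontal cortex (right) on the vertical axis, for KO (red circles) and WT (blue squares) animals; the digits are replicate numbers. For Ppp1r3c both genotypes spread along a common rising band, with KO replicate 8 at the upper end of the KO animals at 56.3 CPM in hippocampus. For Epm2a the KO animals spread along a rising band, with KO replicate 1 at the upper end at 39.3 CPM, and the WT animals follow it more loosely.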

How the data were processed

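RNA sequencing libraries of 3 brain regions from KO and WT mice, 10 per genotype and region, were analysed. The authors deposited 1 table of raw counts per gene, whole numbers for 21950 genes in 60 libraries; per the file headers each feature runs from gene start to gene end. Per the submitters' processing notes, which give no order or role, the tools included STAR 2.5.2b, bedtools, FastQC 0.11.4, DESeq2 1.16.1 and cutadapt 1.16, and the build was GRCm38.

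Levels are CPM after TMM scaling of the 60 libraries together (edgeR 4.0.16, R 4.3.3); log2 CPM took a prior count of 2. KO and WT were compared per region and on counts summed over the regions of an animal, with edgeR's quasi-likelihood F test after filterByExpr and Benjamini-Hochberg adjustment over all genes at 0.05. Region contrasts in WT also required an absolute log2 difference of 1, and the interaction of genotype and region was tested over all libraries. Neither fit held a term for the animal. Scripts were tested on simulated data. No label says which mouse a library came from, so p-values measure the spread between these libraries, which may be technical. Counts of replicate pairs differed beyond sampling noise (chi-square per degree of freedom of 5.51 or more), so each library was kept.

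Labels do not say that equal numbers mark an animal. Within a genotype, equally numbered libraries deviated together in each of the 10 pairs (r from 0.161 to 0.376) between hippocampus and prefrontal cortex and between prefrontal cortex and striatum, and in 8 of 10 between hippocampus and striatum. They were therefore treated as 1 animal.

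The members and lists were chosen with earlier results of these data known. All 8 members were named, with Adgrl3 as the check of the labels. Pathway genes were named if they passed, otherwise the 2 of smallest p, and Gabarapl1 was added after its values were seen. The genes within 1 Mb of Stbd1 that passed, with the nearest on either side, and the 5 highest and 5 lowest r with Stbd1 were named too. Hspb8, Brca2, Mthfd2l, Prdm8, the positions of the other chromosome 5 genes called in hippocampus, and the animal relations were chosen after values were seen. Alternatives were RLE size factors, DESeq2 1.42.0, no filter on counts, a minimum of 1 CPM in 10 libraries, 1 fit of 60 libraries, leaving out each library, and a replicate block.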

Additional observations from a re-analysis of the deposited data

Results flagged for a closer look

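A gap test (Dixon's, at 95%) was run on each of 54 groups of 10 libraries, for the 8 genes and Adgrl3, and 7 groups had a library far from the rest. Chance alone gives about 1 in 20 groups. For Stbd1, WT replicate 5 was far above the other WT libraries in striatum (2.31 CPM), hippocampus (7.63 CPM) and prefrontal cortex (10.9 CPM). Gys1 was low in KO replicate 8 of prefrontal cortex (13.8 CPM). Pygb was low in KO replicate 6 of striatum (149 CPM) and in WT replicate 6 of prefrontal cortex (147 CPM). Ppp1r3c was high in KO replicate 8 of prefrontal cortex (46.1 CPM). The cause of these values was not tested.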

How the results depend on the processing

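Counts of genes called between KO and WT moved with the test more than the values of the 8 genes did. Striatum had 8 called genes, against 28 with DESeq2, 22 in 1 fit of all 60 libraries, 3 with the replicate block, and with single libraries left out 5 (without KO replicate 3 or 9, or WT replicate 1, 2, 3, 4 or 10) to 15 (without WT replicate 5). Hippocampus had 20, against 47 with DESeq2, 5 with the replicate block and 12 (without KO replicate 9 or 10, or WT replicate 6, 9 or 10) to 26 (without KO replicate 2). Prefrontal cortex had 18, against 222 with DESeq2, 208 in the fit of 60 libraries, 10 with the replicate block and 9 (without KO replicate 3 or 9, or WT replicate 1, 3, 9 or 10) to 68 (without KO replicate 7). It had 51 without KO replicate 1, and 40 without KO replicate 5 or WT replicate 7. The regions summed gave 27, against 131 with DESeq2, 650 with 60 libraries and region as a second term, and 11 with the block. The interaction gave 4, against 1 with RLE size factors and 0 with the replicate block in edgeR (1092 genes at an unadjusted p under 0.05). The numbers do not pair KO with WT animals: in each region KO and WT libraries of equal number correlated between -0.53 and 0.32, and at most 1 of 10 correlated best with its own number.

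For the 8 genes, 787 of 816 results under alternatives kept direction and call. This tally includes the KO minus WT results of Stbd1, which was chosen by that difference. Most alternatives share nearly all libraries, and most results were far from the threshold, so the tally is a description and lends the results no support. Stbd1 between striatum and hippocampus lost its fold without WT replicate 5, and between striatum and prefrontal cortex with DESeq2 (-0.93, adjusted p = 0.00479). In 27 results, none of them called, the sign turned. These were Stbd1 between hippocampus and prefrontal cortex with DESeq2 (0.277); Pygm with KO in place of WT libraries (0.106, 0.0498 and -0.0562 for striatum against hippocampus, striatum against prefrontal cortex and hippocampus against prefrontal cortex), and in the last contrast with RLE (-0.0058) and DESeq2 (-0.0060); and Gbe1 with the regions summed, in the fit of 60 libraries (-0.0047). Leaving out single libraries, the KO minus WT differences that turned ran from -0.0492 to 0.0213 for Ppp1r3c in hippocampus and from -0.0415 to 0.0204 in striatum, from -0.0534 to 0.0038 for Gbe1 and from -0.0631 to 0.0124 for Pygm in prefrontal cortex, and from -0.0417 to 0.0046 for Gaa in hippocampus. Without WT replicate 5 Pygm with the regions summed gave 0.0168. The cause was not tested. At the mean Stbd1 count of WT striatum without replicate 5, the counting error of a single library is 18.1% of its level. This limits how finely single libraries can be read, and the counting error of a mean over libraries is smaller.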
